A study of Rattus norvegicus with 5 samples.

Results

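The potassium channel family was examined in laser-captured projection neurons of the rat striatum as the set of genes whose symbol begins with Kcn in the authors' deposited comparison. The rule took 60 of 12054 genes in that table, and all 60 were among the 13811 genes tested. They comprised 28 voltage-gated subunits, 8 inward rectifiers, 8 subunits of 2-pore channels, 6 channels opened by calcium or sodium inside the cell (named here calcium-activated) and 10 auxiliary subunits and regulators. Neurons had been marked by a fluorescent tracer that their axons carried back from a terminal field, and were then cut out of the tissue by laser. Striatomesencephalic neurons, which reach the midbrain, gave 2 libraries, and striatopallidal neurons, which reach the pallidum, gave 3 libraries. The sources used here do not give strain, age, sex, treatment, the number of cells and animals behind a library, or whether libraries of 1 group came from separate animals. P-values therefore measure only the spread between these libraries, which may be technical.

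Potassium channels let potassium leave the cell and so pull the membrane towards rest. Voltage-gated channels open on depolarization and shape the spike and the interval to the next one, inward rectifiers pass current best near rest, 2-pore channels carry a steady leak, and calcium-activated channels follow the calcium that enters with spikes. Spiny projection neurons of the striatum are known for strong inward rectification, which holds them far from threshold, and for transient voltage-gated currents that delay the first spike. Dopamine, acetylcholine and enkephalin receptors act on several of these channels through G proteins.

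Library totals ran from 20845178 to 24805062 counts, so that 3 counts, taken as the detection floor, equalled 0.121 to 0.144 CPM (reads of a gene relative to its library's total count). Summed over 15 genes shared by both types of spiny neuron, libraries held 16372 to 24752 CPM. Sums over the direct pathway list (7 genes, among them Drd1) were 4706 and 5117 CPM in striatomesencephalic and 1687 to 2540 CPM in striatopallidal libraries. Those over the 5 matched indirect pathway genes (among them Drd2) were 1837 and 2013 against 6197 to 6881 CPM. Oligodendrocyte transcripts (15 genes, 5448 to 7526 CPM) and astrocyte transcripts (16 genes, 2661 to 3558 CPM) were present in every library, with sums that overlapped between the groups. Of the 16 astrocyte genes, 4 were separated upwards and 3 downwards in striatomesencephalic libraries. The latter were Gfap (11.5 and 3.85 against 243, 175 and 87.7 CPM), Aqp4 (53.0 and 30.5 against 89.4, 63.5 and 62.3 CPM) and Slc4a4 (435 and 604 against 715, 723 and 695 CPM). In such pooled captures, fewer cells of a type and less RNA per cell cannot be told apart. Striatopallidal replicate 2 stood apart among all genes, having the lowest of the 5 CPM values in 42.1% of them.

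Detection was counted for the 60 members only. They came from the authors' deposited comparison, which holds fewer genes than the deposited counts. Kcn genes outside it were not looked at, so the share detected may depend on that choice of genes. No such share was computed for other genes. Of the 60 members, 54 had more than 3 counts in every library. The other 6 had 3 counts or fewer in at least 1 library, and 2 of these, Kcnab3 and Kcnk4, had 0 counts in at least 1. The 60 members together summed to 6746 and 8268 CPM in striatomesencephalic libraries and to 9113, 8982 and 12094 CPM in striatopallidal replicates 1, 2 and 3. On CPM scaled by TMM, edgeR's factor for library composition, the sums were 6451 and 8115 against 8002, 11600.2 and 11363 CPM, so the groups were separated on plain CPM and overlapped on the TMM scale. A single gene, Kcnab1, took 29.1% to 48.3% of the family's reads. Without Kcnab1 the sums were 4112 and 4420 against 4716, 6364 and 7674 plain CPM, and 3932 and 4338 against 4141, 8219 and 7210 CPM on the TMM scale, which again overlapped.

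The main comparison asked which potassium channel genes differed between the pathways. In edgeR's quasi-likelihood test 0 of 60 members passed a Benjamini-Hochberg adjusted p of 0.05 over all genes tested, and 0% of all genes did, with 0.779 as the smallest adjusted p. At an unadjusted p below 0.05 stood 6 members, or 10% of the family, where the background over all genes was 6.07%. Of these, 2 were higher in striatomesencephalic libraries (background 2.93%), namely Kcnk13 and Kcnq1. The other 4 were lower (background 3.14%), among them Kcnk4, Kcnk2 and Kcnj3. DESeq2 called 219 genes, or 1.6%, and among them the members Kcnk13 and Kcnk4. The exact test of edgeR called 45 genes, or 0.326%, and limma voom 0 genes, and neither called a member. By the authors' deposited table, a set of 4 members had a p-value below 0.05 (Kcnh7, Kcnj3, Kcnk13 and Kcnq1), where the background over its genes was 4.53%, and 0 had an adjusted p below 0.05.

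Leaving out each library moved the counts at an unadjusted p below 0.05. These counts are out of 60 members tested, or 59 without striatopallidal replicate 1 or 3, and each background is a percentage of all genes. Without striatomesencephalic replicate 1 there were 2 members higher (background 2.85%) and 2 lower (1.18%), and without replicate 2 of that group 2 higher (2.86%) and 1 lower (1.41%). Without striatopallidal replicate 1 there were 2 higher (2.65%) and 6 lower (3.33%), without replicate 2 there were 4 higher (3.83%) and 5 lower (4.43%), and without replicate 3 there were 1 higher (2%) and 3 lower (2.77%). With the replicate number as a block 1 was higher (1.59%) and 4 lower (1.78%). Kcnk13 and Kcnk4 were among the members counted in each of these fits.

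Fold changes come from the edgeR fit on the log2 scale, with the striatopallidal value subtracted and the standard error (SE) beside them. By these values 38 of 60 members, 63.3%, were lower in striatomesencephalic libraries, against 52.6% of all genes tested, and the median was -0.52 against -0.06 for all genes. Every library of one group lay above every library of the other for 22 members, or 36.7%, where the background was 21.1%. Of the 22, 7 were higher in striatomesencephalic libraries (background 11.2%) and 15 lower (background 9.91%). On TMM-scaled CPM the count was 19, or 31.7%, against a background of 21.6%, with 5 higher (10.4%) and 14 lower (11.1%). In a check chosen after seeing the data, separation was counted again with each library left out, which makes it easier to reach. There were 34 of 60 members without striatomesencephalic replicate 1 (background 48.1%) and 32 of 60 without replicate 2 of that group (50.3%). Without striatopallidal replicates 1, 2 and 3 there were 27, 35 and 28 of 60 (32.5%, 39.2% and 31%). The family median was -0.27 without striatopallidal replicate 2 and -0.76 without striatomesencephalic replicate 2, where that of all genes was 0.04 and -0.27. The classes differed in their pattern, with all 8 inward rectifiers below 0, and the 2-pore channels split 4 to 4 with the most separated members at both ends.

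**Figure D1:**
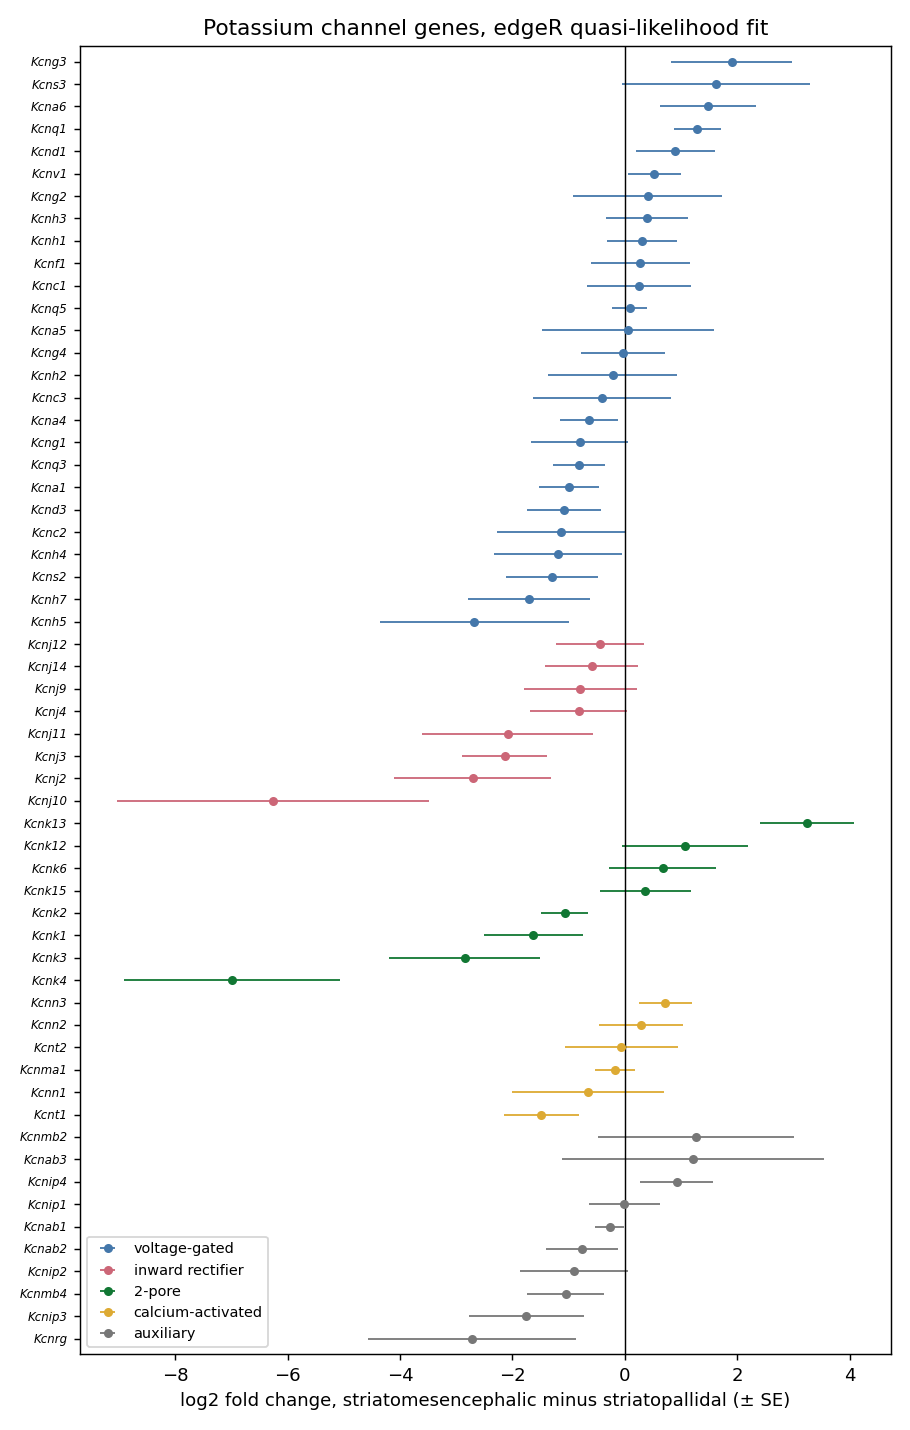
Log2 fold change (horizontal axis, striatomesencephalic minus striatopallidal, edgeR fit) of 58 potassium channel genes, one point per gene with its SE as the bar, grouped and coloured by class. All 8 inward rectifiers lie left of 0, and 2-pore genes range from -6.99 (Kcnk4) to 3.24 (Kcnk13).

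Of the 8 genes for 2-pore channels, 6 did not overlap between the groups in CPM. This is 75% of the class, where the background was 21.1%. Of the 6, Kcnk1, Kcnk2, Kcnk3 and Kcnk4 were lower and Kcnk13 and Kcnk6 higher in striatomesencephalic libraries. Kcnk6 overlapped on TMM-scaled CPM.

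Kcnk13 encodes a leak channel blocked by halothane and is known in brain chiefly from microglia. It stood at 23.4 and 20.0 CPM in striatomesencephalic libraries (488 and 452 counts) and at 2.94, 1.05 and 2.90 CPM in striatopallidal replicates 1, 2 and 3 (70, 26 and 65 counts). Both striatomesencephalic libraries were high and close to each other, and each of the 3 others was low. The log2 fold change was 3.24 ± 0.83 (SE). The adjusted p was 0.779 with edgeR's quasi-likelihood test, and over the alternatives it ran from 0.00234 with DESeq2 to 1. The unadjusted p was below 0.05 in 13 of 13 alternative analyses, with fold changes of 2.98 to 3.48. In the authors' deposited table, which subtracts in the other direction, Kcnk13 had a log2 fold change of -3.47 and an adjusted p of 0.927. Over the 5 matched microglial genes of 10 listed, summed CPM was 35.8 and 20.6 in striatomesencephalic and 104, 36.4 and 31.5 in striatopallidal libraries, and none was at 0 in a library. By fold change 5 of the 5 were lower in striatomesencephalic libraries, the direction opposite to that of Kcnk13. Tmem119 was separated between the groups, with a fold change of -3.62. The other 4 overlapped, with -2.21 for C1qb, -1.57 for C1qc, -0.11 for C1qa and -0.04 for Csf1r. Csf1r was highest in striatomesencephalic replicate 1 (15.7 CPM), and C1qa stood at 9.64 and 14.7 against 31.9, 4.27 and 5.13 CPM. The part of microglial RNA in the Kcnk13 difference was not tested.

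Kcnk4, a leak channel opened by membrane stretch and fatty acids, was nearly undetected in 1 group. It had 0 and 1 counts in striatomesencephalic libraries and 27, 118 and 79 counts in striatopallidal libraries, the latter being 1.13, 4.76 and 3.52 CPM. The groups were fully separated, although both levels were low. In the authors' deposited table, which subtracts in the other direction, Kcnk4 had a log2 fold change of 6.14. Its p-value there was 0.0738 and its adjusted p 0.927. Pooled over libraries and corrected for library totals, the ratio of striatopallidal to striatomesencephalic counts was 137, with a 95% exact Poisson interval of 24.3 to 5430 that covers counting error only. The adjusted p was 0.779 with edgeR's quasi-likelihood test and ran from 0.0231 with DESeq2 to 1 over the alternatives. The unadjusted p was below 0.05 in 13 of 13 alternatives.

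Kcnk2, a related leak channel that receptors close through cAMP and phospholipase signalling, had many more reads. It stood at 267 and 236 CPM in striatomesencephalic and at 753, 435 and 332 CPM in striatopallidal libraries. The striatomesencephalic values lay close together below a wide striatopallidal range. The TMM-scaled means were 244 ± 16.4 CPM (SD, n = 2) and 512 ± 180 CPM (SD, n = 3), and the log2 fold change was -1.07 ± 0.42 (SE). It was -0.85 without striatopallidal replicate 1, the highest library. The unadjusted p was below 0.05 in 6 of 13 alternatives, and the adjusted p in edgeR's quasi-likelihood test was 0.779.

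Kcnk3, an acid-sensitive leak channel, stood at 1.34 and 4.07 CPM against 5.28, 34.8 and 8.03 CPM, and its fold change was -2.85 ± 1.34 (SE). Kcnk1, a weakly rectifying leak channel found in neurons and astrocytes, stood at 19.7 and 27.7 CPM against 40.5, 116 and 30.9 CPM, or -1.63 ± 0.88 (SE). In both genes striatopallidal replicate 2 was far above the others, and without it the fold changes were -1.22 and -0.50. Kcnk1 was lower in the same libraries as the astrocyte genes Gfap, Aqp4 and Slc4a4, whose part in its difference was not tested. Kcnk6 had 6.38 and 7.78 CPM against 3.06, 5.48 and 3.35 CPM, and its fold change of 0.67 ± 0.95 (SE) was smaller than its error. Kcnk15, which is related to Kcnk3, overlapped between the groups at 8.53 to 18.8 and 7.23 to 13.4 CPM. The remaining member, Kcnk12, had a fold change of 1.07 with 0.803 to 4.99 CPM across libraries.

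**Figure D2:**
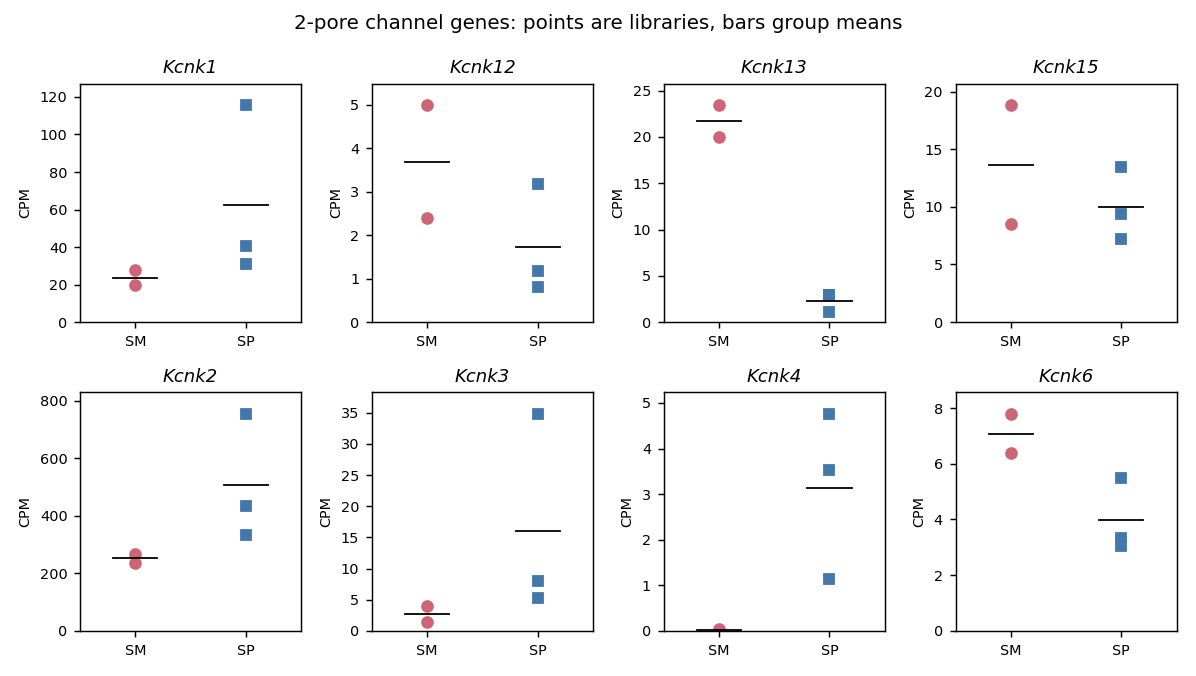
CPM (vertical axes from 0, a different scale in each panel) of the 8 genes for 2-pore channels in striatomesencephalic (SM, circles) and striatopallidal (SP, squares) libraries, each point 1 library and each bar a group mean. Kcnk13 is higher in both SM libraries (23.4 and 20.0 CPM) than in any SP library, and Kcnk4 is at or near 0 in both SM libraries.

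All 8 inward rectifiers had negative fold changes, from -0.44 to -6.26 with a median of -1.45. Summed over the class, CPM was 63.2 and 95.2 in striatomesencephalic and 241, 213 and 177 in striatopallidal libraries, which did not overlap. Kcnj3 alone made up 130 of the 213 CPM in striatopallidal replicate 2. Such separation was not particular to this class. Sums of 2-pore (342 and 307 against 823, 607 and 389 CPM) and calcium-activated channels (862 and 899 against 929, 1621 and 1308 CPM) were separated too. Those of voltage-gated and auxiliary members overlapped. Gene by gene, 2 of the 8, Kcnj3 and Kcnj9, were separated on plain CPM, which is 25% against a background of 21.1%, and on the TMM scale Kcnj12 was the third (background 21.6%). All members tested in a fit stayed below 0 in every alternative except the fit with replicate number as a block, where Kcnj11 had 0.25. The class median was -1.02 without striatopallidal replicate 1 (7 members tested) and -2.0 without striatomesencephalic replicate 2.

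The subunits opened by G protein beta-gamma dimers, which mediate slow inhibition by dopamine, opioid and other receptors, were Kcnj3 and Kcnj9. Kcnj3 stood at 23.9 and 19.7 CPM in striatomesencephalic and at 79.1, 130 and 43.3 CPM in striatopallidal libraries. Each striatopallidal library lay above both striatomesencephalic ones. The TMM-scaled means were 21.1 ± 2.50 CPM (SD, n = 2) and 92.6 ± 66.6 CPM (SD, n = 3), with a log2 fold change of -2.14 ± 0.75 (SE). Without striatopallidal replicate 2, the highest library, it was -1.39, and the unadjusted p was below 0.05 in 9 of 13 alternatives. Kcnj9 was low throughout, at 3.12 and 2.56 CPM against 3.61, 3.31 and 7.27 CPM, and its fold change of -0.79 ± 1.0 (SE) was within its error.

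The strong rectifiers that conduct without a ligand set the resting conductance of spiny neurons. Kcnj2 stood at 1.34 and 0.31 CPM in striatomesencephalic and at 7.88, 0.968 and 7.94 CPM in striatopallidal libraries, and the fold change was -2.71 ± 1.39 (SE). Striatopallidal replicate 2 lay among the striatomesencephalic values, so the groups overlapped. Kcnj4, known for its high striatal expression, stood at 8.44 and 44.4 CPM against 42.2, 53.5 and 32.7 CPM. Striatomesencephalic replicate 1 alone was low, and without it the fold change moved from -0.82 to -0.06. Kcnj12 (8.40 and 8.84 against 15.9, 7.58 and 11 CPM) and Kcnj14 (8.35 and 10.9 against 11.7, 17.4 and 9.95 CPM) overlapped on plain CPM, with fold changes of -0.44 and -0.59 that were below their errors of 0.79 and 0.83.

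Kcnj11, the pore of channels closed by ATP, stood at 9.64 and 8.36 CPM in striatomesencephalic libraries. It stood at 79.9, 0.524 and 42.6 CPM in striatopallidal replicates 1, 2 and 3, so that the lowest and the highest value both came from that group. Kcnj10, the rectifier of astrocytes and oligodendrocytes, had 1 and 3 counts in striatomesencephalic and 12, 1 and 503 counts in striatopallidal libraries. Its fold change of -6.26 ± 2.77 (SE) thus rested on striatopallidal replicate 3. In that library the astrocyte sum was 2918 CPM and the oligodendrocyte sum 5448 CPM, against 2661 to 3558 and 6165 to 7526 CPM in the others. The part of glial RNA in the Kcnj10 value was not tested.

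**Figure D3:**
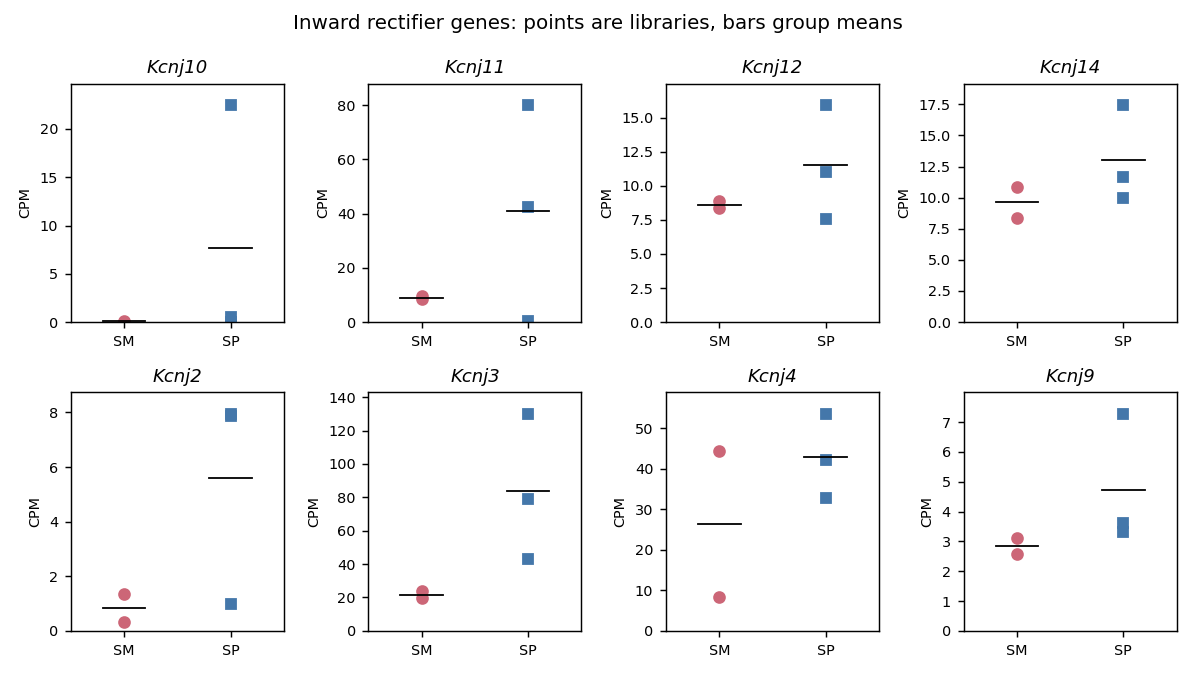
CPM (vertical axes from 0, a different scale in each panel) of the 8 inward rectifier genes in striatomesencephalic (SM, circles) and striatopallidal (SP, squares) libraries, each point 1 library and each bar a group mean. Kcnj3 is separated between the groups, while the Kcnj10 mean rests on 1 SP library at 22.4 CPM.

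The 28 voltage-gated subunits had 13 positive and 15 negative fold changes, and the class median was -0.12. Their libraries were separated in 9 members, 3 higher and 6 lower, or 32.1% against a background of 21.1%. On TMM-scaled CPM 7 of the 28 were separated, where the background was 21.6%. Without striatopallidal replicate 2 the median was 0.16, so the sign of the class median changed with 1 library.

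The KCNQ subunits form the slow M-type channels that muscarinic receptors close, apart from Kcnq1, best known from heart and epithelia. Kcnq1 stood at 218 and 148 CPM in striatomesencephalic and at 80.5, 63.4 and 67.9 CPM in striatopallidal libraries. The 3 striatopallidal values were close together and both striatomesencephalic ones lay above them. The TMM-scaled means were 177 ± 44.8 CPM (SD, n = 2) and 72.1 ± 9.14 CPM (SD, n = 3), and the log2 fold change was 1.29 ± 0.42 (SE). It ran from 1.01 to 1.53 over the alternatives, and the unadjusted p was below 0.05 in 9 of 13.

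Kcnq5 varied little, at 886 and 744 CPM in striatomesencephalic and 705, 722 and 721 CPM in striatopallidal libraries. The fold change was 0.09 ± 0.32 (SE), and the plain CPM values were separated by a narrow margin that closed on the TMM scale. Kcnq3 stood at 208 and 380 CPM against 384, 539 and 506 CPM, a fold change of -0.81 ± 0.46 (SE) that also overlapped on the TMM scale. It was -0.43 without striatomesencephalic replicate 1 and -1.33 without replicate 2.

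In Kcnh5, an EAG-type channel, striatopallidal replicate 3 stood alone with 133 CPM against 3.06 to 9.69 CPM elsewhere. The fold change went from -2.67 to 0.70 without that library.

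Transient, A-type current comes from Kcnd and Kcna4 subunits. Kcnd3 stood at 45.4 and 16.0 CPM against 82.0, 52.4 and 50.6 CPM, separated between the groups, with a fold change of -1.08 ± 0.66 (SE). It was -1.99 without striatomesencephalic replicate 1 and -0.52 without replicate 2. Kcna4 stood at 44.1 and 85.8 CPM against 96.4, 82.6 and 111 CPM, or -0.64 ± 0.51 (SE), and its groups overlapped on plain CPM and were separated on the TMM scale. It was -0.22 without striatomesencephalic replicate 1 and -1.22 without replicate 2. Kcna1, a low-threshold subunit of axons, stood at 297 and 377 CPM against 409, 856 and 518 CPM, or -0.99 ± 0.53 (SE), and overlapped only on the TMM scale. Without striatopallidal replicate 2 it was -0.38.

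Kcnh7, an ERG-type channel, stood at 20.4 and 1.64 CPM against 30.0, 36.8 and 31.3 CPM. The striatopallidal values lay close together and striatomesencephalic replicate 2 was far below all others. The fold change was -1.71 ± 1.09 (SE), and -0.82 without that library. In the authors' deposited table Kcnh7 had 2.57 in the opposite subtraction, with a p-value of 0.0492 and an adjusted p of 0.927. Kcns2, a silent subunit that modifies other voltage-gated channels, stood at 5.32 and 9.06 CPM against 13.0, 12.1 and 26.1 CPM, or -1.30 ± 0.83 (SE). Kcnh4, an ELK-type channel, overlapped at 0.929 to 5.85 and 4.46 to 9.35 CPM. The 16 other voltage-gated members had fold changes from -1.13 to 1.90, 11 of them above 0. Of the 16, 1 was separated between the groups, Kcnd1 (upwards), or 6.25% against a background of 21.1%.

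**Figure D4:**
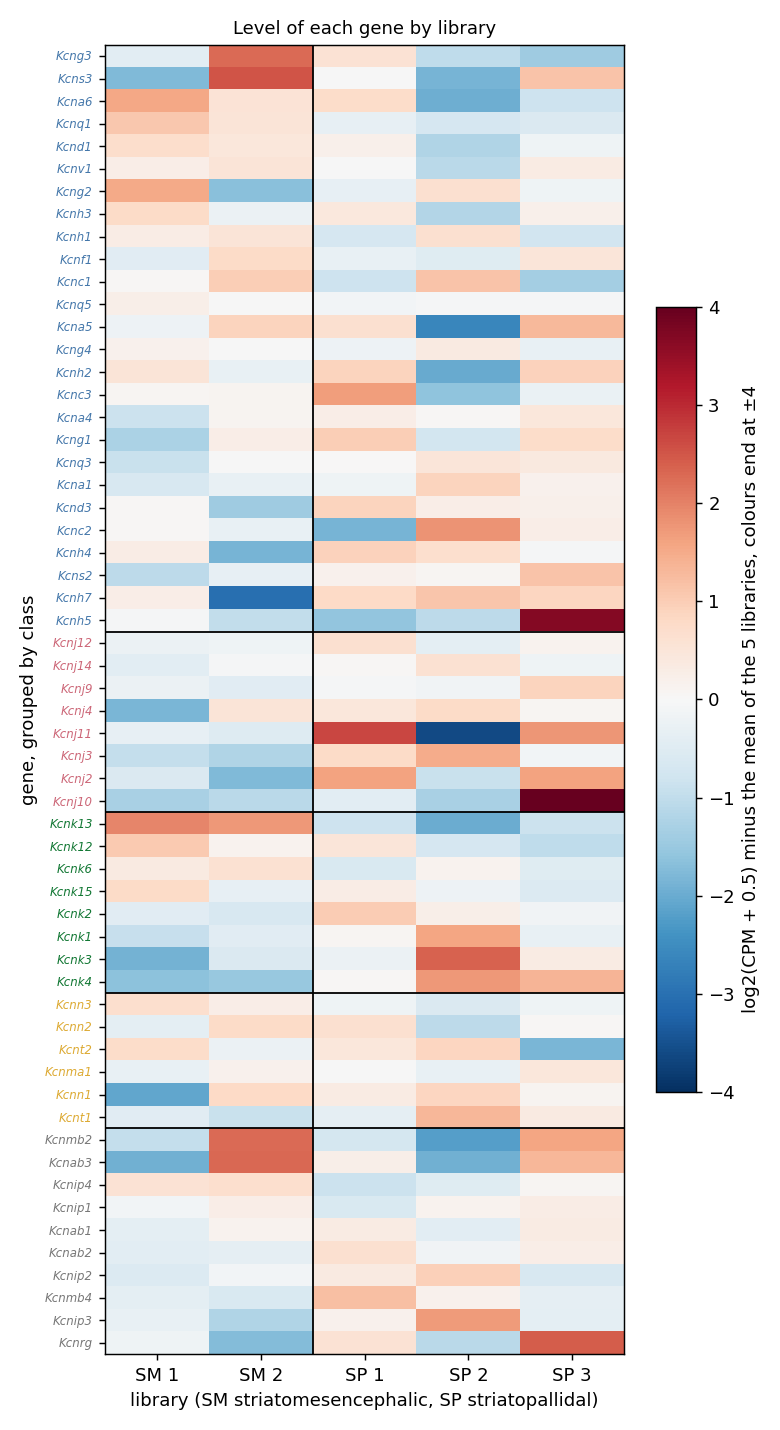
Level of 58 of the genes (rows, grouped by class) in the 5 libraries (columns), shown as log2(CPM + 0.5) minus the mean of the gene over libraries, red above and blue below. Single dark cells mark genes set apart by 1 library, such as Kcnh5 and Kcnj10 in striatopallidal replicate 3.

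Among the 6 calcium- or sodium-activated channels, none had an unadjusted p below 0.05 in the main test. Kcnma1, the large-conductance channel that ends the spike, stood at 375 and 515 CPM in striatomesencephalic and 451, 371 and 622 CPM in striatopallidal libraries. Both striatomesencephalic values lay within the wider striatopallidal range, with a fold change of -0.17 ± 0.35 (SE). Kcnn3, a small-conductance channel of the afterhyperpolarization, stood at 108 and 80.1 CPM against 59.2, 44.7 and 59.3 CPM. Both striatomesencephalic libraries were higher, with TMM-scaled means of 91.0 ± 17.5 CPM (SD, n = 2) and 55.1 ± 2.89 CPM (SD, n = 3) and a fold change of 0.72 ± 0.46 (SE). Kcnn2 (15.2 and 34.8 against 31.7, 9.47 and 20.7 CPM) and Kcnn1 (0.336 and 5.66 against 3.86, 5.81 and 3.26 CPM) overlapped, and neither kept its direction without 1 of the striatomesencephalic libraries. Kcnt1, opened by intracellular sodium, stood at 336 and 250 CPM against 362, 1161 and 598 CPM. Its fold change was -1.49 ± 0.66 (SE), and -0.64 without striatopallidal replicate 2. Its groups overlapped on the TMM scale, and its unadjusted p was below 0.05 in 3 of 13 alternatives.

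None of the 10 auxiliary subunits and regulators had an unadjusted p below 0.05, and 7 of them had fold changes below 0, with a median of -0.52. Kcnab1, a cytoplasmic beta subunit that speeds the closing of Kcna channels, stood at 2634 and 3848 CPM in striatomesencephalic and 4397, 2618 and 4420 CPM in striatopallidal libraries. On the TMM scale the means were 3148 ± 889.6 CPM (SD, n = 2) in the former and 3798 ± 389.6 CPM (SD, n = 3) in the latter, and the fold change was -0.27 ± 0.26 (SE). Kcnmb4, the beta subunit that makes Kcnma1 channels slow and toxin-resistant, stood at 25.6 and 21.8 CPM against 78.7, 37.9 and 26.1 CPM, separated by a narrow margin, with -1.05 ± 0.68 (SE). Kcnip1 had 40.1 and 52.2 CPM against 27.7, 47.7 and 52.2 CPM and a fold change of -0.01. Kcnip2, like Kcnip1 a calcium-binding partner of Kcnd channels, had 5.71 and 7.96 CPM against 11.2, 17.4 and 5.35 CPM. The 6 other members ran from -2.72 to 1.27, and of these Kcnip4 was separated upwards and Kcnab2 downwards. With Kcnmb4 this made 3 of 10 auxiliary members separated, or 30% against a background of 21.1% (11.2% upwards and 9.91% downwards).

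Spread within a group was wide for this family, as for other genes. CPM differed over 2-fold between the striatomesencephalic libraries for 24 members, or 40%, against 46.4% of all genes tested. It differed over 2-fold among the striatopallidal libraries for 42 members, or 70%, against 72%. Striatopallidal replicate 2 gave the highest value of the 5 for 19 of the 60 members and the lowest for 19 others. For all genes it gave the highest value in 18.1% and the lowest in 42.1%. Its TMM factor was 0.774, against 1.02 to 1.14 in the other libraries, so its TMM-scaled CPM lie above its plain CPM.

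Genes that work with potassium channels but lie outside the family were counted in the same fit. The list held 45 genes, covering accessory membrane proteins, scaffolds, calmodulins, G protein subunits, HCN channels, and the pumps and cotransporters that set the potassium gradient. Of 39 tested, 19 had fold changes below 0 and 20 above, and the median was 0.02. In edgeR's quasi-likelihood test 0 of 39 passed after adjustment, and 1 had an unadjusted p below 0.05 (background 6.07%). That gene was Amigo2, an adhesion protein of neurons, at 6.81 and 9.37 CPM against 16.0, 1037 and 11.8 CPM, where striatopallidal replicate 2 was far above all others.

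Upstream sequence was matched by symbol to RefSeq promoter windows of rat build GRCr8, which held 37 of the 60 members in 42 windows. In the 250 bases before the start, the GC box GGGCGG on either strand occurred in 20 of 42 windows, or 47.6%, against 30.5% of all 33469 windows. The TATA box TATAAA on either strand occurred in 0 of 42 (12.9% of all windows), and the cAMP response element TGACGTCA in 0 of 42 (1.59% of all). A match is only a string of letters and says nothing of binding. Shown are the windows of the members that were separated between the groups with a fitted change of 2-fold or more and whose window lies in no annotated gene. These are Kcnd3 (chr2:195626066-195626315, plus strand), Kcnk2 (chr13:103494687-103494936, minus strand) and Kcnmb4 (chr7:54005102-54005351, minus strand), 5′ to 3′ with GC boxes in capitals.
Kcnd3: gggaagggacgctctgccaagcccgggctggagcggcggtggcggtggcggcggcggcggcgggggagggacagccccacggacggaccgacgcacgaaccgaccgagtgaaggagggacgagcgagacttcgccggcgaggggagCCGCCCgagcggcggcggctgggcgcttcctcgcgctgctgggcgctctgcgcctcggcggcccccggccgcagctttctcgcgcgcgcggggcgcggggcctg
Kcnk2: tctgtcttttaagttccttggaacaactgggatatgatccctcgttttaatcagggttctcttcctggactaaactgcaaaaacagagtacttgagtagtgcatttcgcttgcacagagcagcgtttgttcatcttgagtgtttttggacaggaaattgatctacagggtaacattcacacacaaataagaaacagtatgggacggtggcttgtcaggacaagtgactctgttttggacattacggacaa
Kcnmb4: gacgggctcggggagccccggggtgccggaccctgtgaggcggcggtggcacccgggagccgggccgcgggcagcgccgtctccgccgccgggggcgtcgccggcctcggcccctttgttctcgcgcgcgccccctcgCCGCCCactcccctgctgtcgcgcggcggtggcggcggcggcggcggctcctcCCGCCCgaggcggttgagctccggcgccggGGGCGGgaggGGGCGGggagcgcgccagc
All 3 genes had lower CPM in both striatomesencephalic libraries, and their upstream sequences differed widely. The change of each was under 2-fold without 1 library (Kcnd3 -0.52 without striatomesencephalic replicate 2, Kcnk2 -0.85 and Kcnmb4 -0.69 without striatopallidal replicate 1). The Kcnmb4 window had 84.4% G and C and 4 GC boxes, the Kcnd3 window 79.6% and 1, and the Kcnk2 window 42.0% and 0, where the median of all windows was 51.2%.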

How the data were processed

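RNA was sequenced from 2 striatomesencephalic and 3 striatopallidal libraries, grouped by the cell type in the labels. Polyadenylated RNA of the captured cells was reverse transcribed with a single-cell REPLI-g kit, per the labels. The submitters' processing notes name build Rnor_6.0 and the tools HTSeq, TopHat2, limma and edgeR, without versions or roles. The authors deposited raw counts per Ensembl gene for each library, from which all tests started. The authors' deposited comparison gave gene symbols, log2 fold changes (striatopallidal minus striatomesencephalic) and p-values.

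Counts were tested with edgeR 4.0.16 (R 4.3.3): filterByExpr, TMM, glmQLFit and glmQLFTest on all 5 libraries, with Benjamini-Hochberg adjustment over 13811 genes. A run on simulated counts checked the code only, since recovery was required only at a spread far below that of these data. CPM per library are counts over the library total unless called TMM-scaled. Alternatives were DESeq2 1.42.0, edgeR's exact test, limma 3.58.1 (voom), other scalings, no filter, a replicate block and leaving out each library. An exact two-sided permutation test of 2 against 3 libraries cannot go below p = 0.1, so none was run. Reads carried no molecular identifiers, so floors and intervals cover counting error only. No gene lengths of the build were used, so CPM, read shares and ranks of different genes are not corrected for length.

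The members, classes and lists were chosen with earlier results of these data known. Genes named were those with an unadjusted p below 0.05, those separated between groups with a 2-fold change, the 3 with the highest mean CPM in each class, those with 10 or more counts in a library and 10 times the next, and 2 lists of channels known for spiny neurons or for other cells, 36 in all, 2 of which are counted but not reported here. Partner genes were named only at an unadjusted p below 0.05. Sums over marker lists are plain CPM: besides those given in the report, interneuron (5 of 10 genes matched) sums ran from 60.8 to 128 CPM, vascular (9 of 12) from 63.1 to 165 and cortical excitatory (2 of 7) from 166 to 475.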

Additional observations from a re-analysis of the deposited data

How the results depend on the processing

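The number of genes called was 219 with DESeq2 and 45 with the exact test of edgeR in place of 0, and DESeq2 called 2 members. Other scalings, the normalization factors of the labels and no filter on low counts left 0 called. With limma voom the median of voltage-gated members was 0.11 and that of inward rectifiers -0.93, and Kcnip1 turned to 0.12. With library totals only, Kcnip1 had 0.12.

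The shared replicate numbers mark nothing in the labels, so they were not taken as pairs. Deviations from the group means correlated at -0.02 (replicate 1) and -0.04 (replicate 2) across genes. These values cannot decide pairing, because the deviations of 2 striatomesencephalic libraries from their mean mirror each other. With replicate number as a block, 1 member in place of 2 was higher at an unadjusted p below 0.05, the inward rectifier median was -0.88, and Kcnh5 (0.73), Kcnip1 (0.19) and Kcnj11 (0.25) turned positive. With the block, 0 genes passed after adjustment.

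Leaving out each library in turn, members at an unadjusted p below 0.05 ran from 1 to 4 higher and 1 to 6 lower in striatomesencephalic libraries. The family median ran from -0.76 to -0.27, voltage-gated from -0.47 to 0.16, inward rectifiers from -2.0 to -1.02, calcium-activated from -0.44 to 0.16 and auxiliary from -1.07 to -0.27. Members separated between groups, an alternative chosen after seeing the data, ran from 27 to 35 of 60. There were 35 without striatopallidal replicate 2 (background 39.2%) and 34 without striatomesencephalic replicate 1 (background 48.1%). Of 33 named members tested in all 13 alternatives, 25 kept their direction in each. Kcnj10 kept it in the 11 in which it was tested, which did not include those without striatopallidal replicate 1 or 3. Without 1 library, Kcnh5 ran from -3.25 to 0.70, Kcnip1 from -0.31 to 0.28, Kcnk15 from -0.28 to 0.82, Kcnma1 from -0.43 to 0.058, Kcnn1 from -3.83 to 0.26, Kcnn2 from -0.45 to 0.79 and Kcnq5 from -0.036 to 0.28. The cause of these changes was not tested. Where 1 library of a group remained, its spread was taken from the other group.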
